A study of Homo sapiens with 24 samples.

Results

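The human HOX genes lie in 4 clusters, and the regions described here are all ChIP-seq peaks or enriched regions that touched 1 of 4 windows drawn around them on the hg19 genome build. ChIP-seq sequences the DNA that an antibody brings down with a chromatin protein or a histone modification. The windows, in kb, were 27120 to 27260 on chromosome 7 for HOXA, 46600 to 46815 on chromosome 17 for HOXB, 54325 to 54455 on chromosome 12 for HOXC and 176940 to 177060 on chromosome 2 for HOXD. They span 140, 215, 130 and 120 kb and hold 11, 10, 9 and 9 HOX genes, 39 in all. Of the 1483402 regions in 18 lists, 697 overlapped a window by at least 1 bp, of which 156 were in HOXA, 203 in HOXB, 200 in HOXC and 138 in HOXD.

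The cells were UMUC1, an established line of human bladder cancer. UTX (KDM6A) removes methyl groups from lysine 27 of histone H3 and belongs to the complexes of the H3K4 methyltransferase MLL4. All 3 lines were stable for a pSIN vector with puromycin resistance. EV had the vector with no insert, WT had it with wild-type UTX, and HEAA had it with UTX changed at H1146A and E1148A. All cells were taken on day 3 after plating, and chromatin was cut with micrococcal nuclease and sonication for UTX and MLL4 and by sonication alone for the histone marks. Each line had 1 list of UTX, MLL4, H3K27me3 and H3K4me1 and 2 numbered lists of H3K27ac. The labels do not say whether the numbered libraries came from separate cultures, or whether a line was 1 clone, so every p-value here measures only the spread between libraries. The identity of the line was not checked, since regions were not assigned to genes.

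HOX genes encode the homeodomain transcription factors that give position along the body axis, and within a cluster their order on the chromosome follows the order in which they are used, with the lowest-numbered genes anterior and the highest-numbered genes posterior. H3K27me3 is laid down by Polycomb repressive complex 2 and covers silent HOX genes in broad domains, while H3K27ac marks active promoters and enhancers and H3K4me1 marks enhancers and the shoulders of promoters. UTX and MLL4 are among the enzymes known to counter Polycomb at HOX genes in development.

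Positions below run from 1 on hg19. Genes are given by their order only, as regions were not assigned to single genes. HOXB1, HOXC13 and HOXD13 lie at the end of their window with the lower coordinates, and HOXA13 at the end with the higher.

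Polycomb domains at HOX genes lie over DNA rich in CG dinucleotides, so the promoters of the related genes HOXA13 and HOXD13 are shown. HOXA carried its H3K27me3 beside HOXA13 only, and HOXD carried it at both ends. These are the 250 bases before the start of each gene in the RefSeq promoter table of build GRCh38.p14, at chr7:27200092-27200341 on the minus strand and chr2:176092471-176092720 on the plus strand. The coordinates are not those of hg19 and were not matched to any region below. Capitals mark each CG, a motif that reads the same on both strands.
HOXA13: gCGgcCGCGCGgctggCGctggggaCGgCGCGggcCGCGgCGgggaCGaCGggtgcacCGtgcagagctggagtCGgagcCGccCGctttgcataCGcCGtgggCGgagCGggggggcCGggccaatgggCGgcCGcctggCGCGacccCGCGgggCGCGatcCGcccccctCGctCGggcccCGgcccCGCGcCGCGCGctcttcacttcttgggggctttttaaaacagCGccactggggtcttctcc
HOXD13: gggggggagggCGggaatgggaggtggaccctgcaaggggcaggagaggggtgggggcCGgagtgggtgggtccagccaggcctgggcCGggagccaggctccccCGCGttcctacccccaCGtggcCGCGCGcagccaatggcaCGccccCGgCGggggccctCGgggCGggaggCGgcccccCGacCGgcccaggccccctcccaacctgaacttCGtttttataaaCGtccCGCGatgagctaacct

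HOXA13 had 40 CG in these 250 bases, a count reached by 2.16% of the 35116 starts in the table, and HOXD13 had 21, reached by 30.2% of starts. The table matched 20 of the 39 HOX genes with 27 starts, 7 of them of HOXA3 and 2 of HOXA10. The median over the 27 was 19 CG, against 11 over all starts, and 19 of the 27 (70.4%) lay above 11, against 48.5% of all starts. At least 1 CG was present in 96.3% of the HOX starts and 93.9% of all starts. HOXA starts ranged from 0 to 40 CG and HOXD starts from 4 to 31, the HOXC4 and HOXC5 starts had 14 each, and the HOXB1 start had 7. Genes with no entry included HOXA5, HOXB2 to HOXB9, HOXB13, HOXC6, HOXC8, HOXC9, HOXC10, HOXC11, HOXC12, HOXC13 and HOXD9.

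Over the whole genome the H3K27ac lists held 37298 to 72700 regions over 48.3 to 111 Mb. Those of library number 2 in WT (55.3 Mb) and HEAA (48.3 Mb) were the shortest, and that of number 1 in HEAA was the longest. H3K27me3 lists of EV, WT and HEAA covered 239, 169 and 251 Mb, and those of H3K4me1 157, 179 and 186 Mb. UTX lists held 31 to 2855 peaks and MLL4 lists 133 to 1125, with the fewest in EV. Lists lengthen with sequencing depth and antibody performance, and the depth of every sample is unknown, so kb in a window are given beside the length of the list.

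The first comparison was between the clusters. HOXA was the acetylated cluster and HOXC the methylated one in these cells, in every line, and HOXB and HOXD carried less H3K27ac than HOXA and less H3K27me3 than HOXC in every line.

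H3K27ac covered 53.5 and 50.9 kb of the HOXA window in the 2 EV libraries, 51.3 and 44.1 kb in WT, and 55.3 and 42.9 kb in HEAA. All 6 lay above every library of the other 3 clusters. In HOXB it covered 11.7 and 12.3 kb in EV, 9.08 and 5.28 kb in WT, and 12.4 and 3.87 kb in HEAA. HOXC had 6.29 and 4.48 kb in EV, 5.90 and 2.98 kb in WT, and 5.32 and 2.36 kb in HEAA. HOXD had 10.1 and 6.70 kb in EV, 8.93 and 5.29 kb in WT, and 10.5 and 6.56 kb in HEAA. In HOXA, HOXC and HOXD the library of number 1 was higher than that of number 2 in each line, and in HOXB it was so in WT and HEAA but not in EV. HOXA makes up 23.1% of the length of the 4 windows, and it held between 65.6% (EV, library 1) and 77.0% (HEAA, library 2) of their acetylated bases.

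H3K27me3 gave the other order. It covered 5.00 kb of HOXA in EV, 0.317 kb in WT and 2.53 kb in HEAA, from 4, 1 and 2 regions. HOXB had 36.9, 22.1 and 40.2 kb in EV, WT and HEAA, and HOXD had 22.1, 19.8 and 24.5 kb. HOXC had 69.2, 44.0 and 55.9 kb, which was 53.2%, 33.8% and 43.0% of its window and 52.0%, 51.0% and 45.4% of the H3K27me3 bases in the 4 clusters. In each line HOXA was lowest and HOXC highest, with 1 list per line and so no replicate error.

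H3K4me1 was spread more evenly. In EV, WT and HEAA it covered 37.98, 27.5 and 31.6 kb of HOXA, 17.8, 9.57 and 12.0 kb of HOXB, 18.4, 16.5 and 14.0 kb of HOXC, and 13.8, 13.4 and 11.2 kb of HOXD. HOXA held 41.1% to 45.9% of the H3K4me1 bases of the 4 clusters. As a share of the window, HOXB had the lowest H3K4me1 in every line, from 4.45% in WT to 8.30% in EV.

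**Figure D1:**
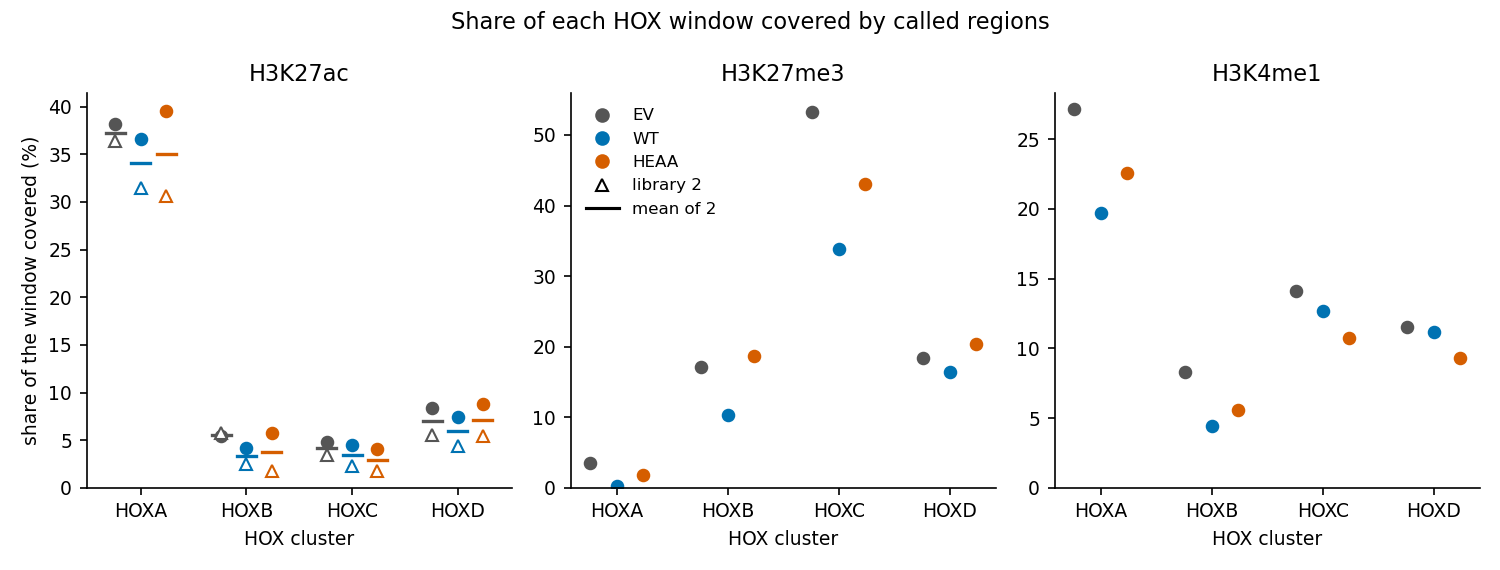
Share of each HOX window (y axis, percent of the window's length) covered by regions of H3K27ac, H3K27me3 and H3K4me1 in EV, WT and HEAA. Filled circles are single lists or H3K27ac library 1, open triangles H3K27ac library 2, and bars the mean of both libraries. HOXA stands between 30.7% and 39.5% for H3K27ac, and HOXC between 33.8% and 53.2% for H3K27me3.

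Each window was also set against all other tiles of the same length along the genome that held any mark, as a description. Between 0.0360% and 0.206% of 19433 tiles of 140 kb had as much H3K27ac as HOXA, over the 6 libraries. For HOXB, HOXC and HOXD the corresponding ranges were 15.0% to 29.8%, 22.1% to 31.3% and 10.1% to 15.7%. As much H3K27me3 as in HOXC was found in 1.41% of 20868 tiles in EV, 3.60% in WT and 3.88% in HEAA. HOXA sat near the middle of the tiles for H3K27me3, with 47.8% to 65.5% having as much. For H3K4me1, 2.38% of tiles in EV, 7.09% in WT and 5.71% in HEAA had as much as HOXA.

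The widest acetylated region of HOXA held 37.7% (HEAA, library 1) to 46.6% (HEAA, library 2) of the acetylated bases of its window. In all 6 libraries the widest H3K27ac region of the 4 clusters lay in HOXA, and bases 27200119 to 27220030 on chromosome 7, a stretch of 19.9 kb, were called in every one. The region that held them measured 20.3 and 20.0 kb in EV, 20.8 and 20.4 kb in WT, and 20.8 and 20.0 kb in HEAA. By width it ranked 16, 14 and 25 in the library 1 lists of EV, WT and HEAA and 8, 3 and 3 in those of library 2. The fold enrichment over background, as the authors' peak caller gave it, was 18.3, 23.3 and 23.9 in library 1 and 16.0, 11.1 and 10.97 in library 2. In each line the fold was higher in library 1 than in library 2.

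Beside this stretch, 7 other HOXA segments of at least 1 kb were called in all 6 libraries. They included those at 27150767 to 27155676, 27169606 to 27171188, 27175102 to 27176528, 27189726 to 27192929, 27194180 to 27196563 and 27222592 to 27226458. HOXB had 1 such segment, at 46687487 to 46688616 on chromosome 17 (1.13 kb), HOXD had 1, at 176969230 to 176971820 on chromosome 2 (2.59 kb), and HOXC had none. HOXA thus held 8 of the 10 segments. Of the HOXA bases acetylated in any library, 40.6 of 57.8 kb (70.1%) were acetylated in all 6. The share was 15.8% in HOXB, 24.3% in HOXC and 36.9% in HOXD, against 29.1% over the whole lists.

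The widest region of the other clusters was small beside that of HOXA. In HOXB it measured 2.54 kb in EV library 1 (46680277 to 46682820), 2.50 and 2.73 kb in library 1 of WT and HEAA, and 2.27, 1.59 and 1.13 kb in library 2 of EV, WT and HEAA. In HOXC the widest region of EV library 1 lay at 54333076 to 54334595 (1.52 kb), and the widest of the 6 libraries measured 1.03 to 1.64 kb. In HOXD the widest region of each library covered the segment named above and measured 2.59 to 3.58 kb, and in EV library 1 it lay at 176968502 to 176972079. The HOXB region with the highest fold in EV library 1 was at 46687137 to 46689547 (11.3-fold), around the segment called in all 6 libraries. In HOXC the highest fold was 10.7 in EV library 2, at 54388937 to 54390296.

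**Figure D2:**
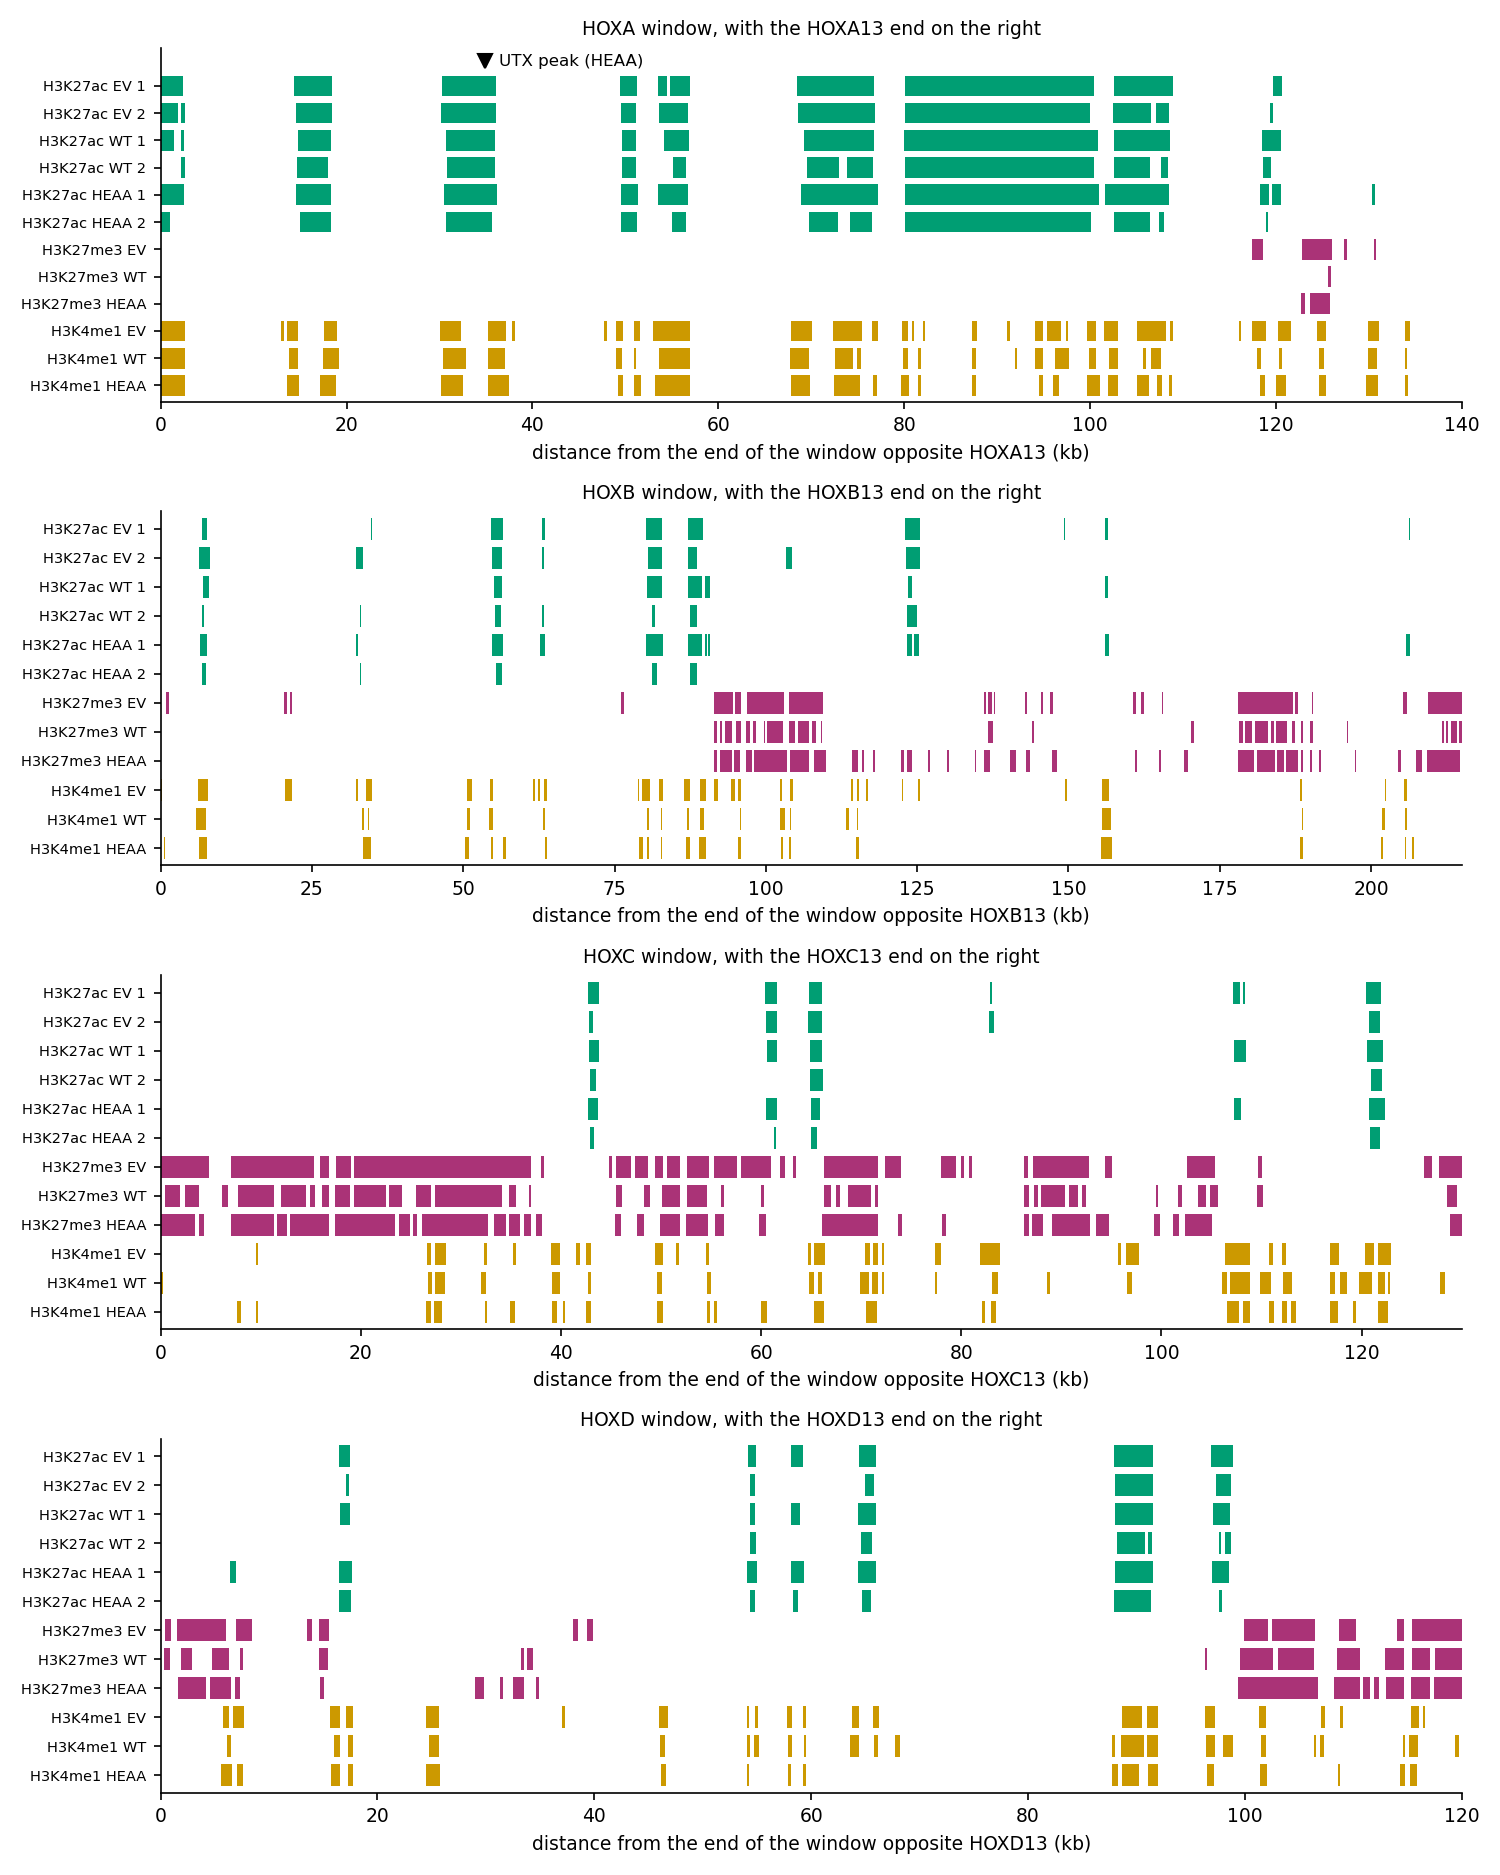
Called regions in the 4 HOX windows, drawn towards the end with HOXA13, HOXB13, HOXC13 or HOXD13 (right). The x axis is the distance in kb from the left end, each row is 1 list, and a bar is a called region (green H3K27ac, purple H3K27me3, yellow H3K4me1). The broad bar in all 6 H3K27ac rows of HOXA is the 19.9 kb stretch, H3K27me3 in HOXA is limited to the right end, and in HOXC it is densest on the side of HOXC4. The triangle is the UTX peak of HEAA.

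The marks were placed differently along each cluster. With each window cut into 10 equal parts counted towards the end with HOXA13, HOXB13, HOXC13 or HOXD13, H3K27ac of HOXA covered 76.2%, 100% and 63.3% of parts 6 to 8 in EV library 1 and 0% of part 10. In part 9 it covered 1.64% (HEAA library 2) to 14.3% (WT library 1) over the 6 libraries, and in HEAA library 1 it covered 2.34% of part 10. Merged over the libraries, an acetylated region of part 9, at 27238339 to 27240618, was called in all 6. Split at its middle, the window held 34.5 and 32.7 kb of H3K27ac in EV on the HOXA13 side, of 53.5 and 50.9 kb in all. All H3K27me3 of HOXA lay on the HOXA13 side, beyond 117 kb from the start of the window. The EV regions there began at 27237453, 27242818, 27247307 and 27250516, the single WT region spanned 27245587 to 27245903, and the HEAA regions spanned 27242751 to 27243143 and 27243660 to 27245792. The WT region lay within the widest EV region (27242818 to 27246006, 3.19 kb), and both HEAA regions overlapped it.

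In HOXB the order was reversed for H3K27ac but not for H3K27me3. The HOXB1 side held 8.40 and 10.1 kb of H3K27ac in EV, against 3.30 and 2.21 kb on the HOXB13 side, which had 0 kb in HEAA library 2. H3K27me3 covered 15.6, 9.39 and 13.2 kb of the HOXB1 side in EV, WT and HEAA, and 21.3, 12.7 and 27.0 kb of the HOXB13 side. The sides were split by length, and the genes in each were not counted. H3K27me3 was called over 64.2%, 43.7% and 61.2% of part 5 in EV, WT and HEAA, and over 45.3%, 36.4% and 44.0% of part 9. The widest EV domain, 46778021 to 46787088 (9.07 kb), lay in part 9. The widest domains of WT and HEAA were narrower and lay at the HOXB13 end. The widest in HEAA was 46809265 to 46814774 (5.51 kb) and in WT 46814551 to 46817343 (2.79 kb). Most of that WT domain lay beyond the edge of the window. The widest WT region wholly inside the window was 46700216 to 46702812 (2.60 kb), in part 5. The regions of highest fold in EV (46696933 to 46703061, 3.34-fold), WT (46700216 to 46702812, 3.48-fold) and HEAA (46691396 to 46692014, 3.63-fold) lay in part 5.

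In HOXC H3K27me3 was denser on the HOXC4 side of the middle, with 47.0, 31.6 and 37.8 kb in EV, WT and HEAA, than on the HOXC13 side, with 22.2, 12.3 and 18.1 kb. H3K27ac was called in none of the first 3 of the 10 parts in any library, where H3K27me3 covered 82.8%, 87.6% and 87.0% in EV. The widest H3K27me3 region of any HOX window was the EV region at 54417973 to 54435677, 17.7 kb, which ranked 51 of 231899 by width in its list. In WT the widest HOXC region was 6.70 kb, at 54420894 to 54427596, inside that EV region. In HEAA it was 6.66 kb, at 54319491 to 54326145, and reached over the edge of the window on the HOXC13 side. Only its last 1.15 kb lay in the window. A HEAA region of nearly the same width, 6.57 kb at 54422303 to 54428875, lay inside the widest EV region and overlapped the widest WT region. The highest fold was at 54400191 to 54402431 in EV (4.15-fold) and 54398665 to 54398971 in WT (3.63-fold), and in HEAA it was that of the widest region (3.56-fold).

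HOXD carried H3K27me3 at both ends. It covered 55.1%, 28.9% and 42.1% of part 1, beside HOXD1, and 56.4%, 67.7% and 77.5% of part 10, beside HOXD13, in EV, WT and HEAA. Parts 5 to 8 had none in any line, and H3K27ac covered 24.5% to 29.8% of part 8 over the 6 libraries. The HOXD region of highest H3K27me3 fold in HEAA, at 176942948 to 176944640 (4.64-fold), ranked 11 of 247498 regions in its list by fold. The region of highest fold in WT, at 176942914 to 176944623 (3.83-fold), overlapped it, and so did the EV region at 176937617 to 176944587 (3.905-fold).

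A pair of edges between the marks was picked out after the values were known. In HOXD, the broad H3K27me3 beside HOXD13 ended 20.1, 20.5 and 20.6 kb into the window in EV, WT and HEAA, and the merged H3K27ac region next to it began at 21.1 kb. In HOXB, the H3K27me3 of part 5 began 91.4, 91.5 and 91.4 kb into the window, and the acetylated regions before it ended at 89.5 and 88.7 kb in EV, 90.7 and 88.7 kb in WT, and 90.7 and 88.6 kb in HEAA. Over all clusters, the median gap from an acetylated region to the nearest H3K27me3 region was 1.12 to 1.98 kb in HOXC over the 6 libraries, 3.13 to 35.0 kb in HOXB, 5.20 to 13.7 kb in HOXD and 45.6 to 71.6 kb in HOXA.

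The next comparison asked whether acetylation of the clusters differed between the empty-vector line and the lines with a UTX construct. H3K27ac covered a mean of 52.2 ± 1.84 kb of HOXA in EV, 47.7 ± 5.08 kb in WT and 49.1 ± 8.75 kb in HEAA (SD, n = 2 libraries each). In HOXB the means were 12.0 ± 0.450 kb, 7.18 ± 2.69 kb and 8.12 ± 6.01 kb. In HOXC they were 5.38 ± 1.28, 4.44 ± 2.06 and 3.84 ± 2.10 kb, and in HOXD 8.39 ± 2.38, 7.11 ± 2.57 and 8.55 ± 2.81 kb. In each cluster the covered kb of the EV libraries overlapped the range of the other 4.

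The mean of the 4 UTX-construct libraries minus that of EV was -3.80 kb in HOXA, -4.37 kb in HOXB, -1.25 kb in HOXC and -0.558 kb in HOXD. Exact two-sided permutation tests over the libraries gave p = 0.533, 0.267, 0.4 and 0.667 for HOXA, HOXB, HOXC and HOXD, and 0.889 for each after Benjamini-Hochberg adjustment over 8 tests. With 15 arrangements of 2 against 4 libraries the smallest p is 0.0667, so this design cannot reach 0.05. Within library number 1 the differences were -0.207, -0.973, -0.683 and -0.340 kb, and within number 2 they were -7.39, -7.76, -1.81 and -0.776 kb. The pooled differences of HOXA and HOXB therefore came mostly from number 2, in which the EV list (71.7 Mb) was longer than those of WT and HEAA. With lists cut to equal length the differences were -2.25 kb in HOXA, -2.28 kb in HOXB, -1.47 kb in HOXC and 0.420 kb in HOXD, so those of HOXA and HOXB were smaller by more than 1.5 times and kept their direction.

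Scaled to bases per Mb of the list, the clusters parted. In HOXA and HOXD the difference turned positive, at 21.2 and 1.01 bases per Mb. In HOXB it was -57.0 bases per Mb, where the EV libraries had 133 and 172, the WT libraries 94.5 and 95.4, and the HEAA libraries 112 and 80.2. In HOXC it was -13.9 bases per Mb, where the EV libraries had 71.4 and 62.5, the WT libraries 61.4 and 53.8, and the HEAA libraries 48.1 and 48.8. On this scale both EV libraries of HOXB and HOXC lay above all 4 others, and each exact permutation p was 0.0667, the smallest this design allows. The same order held on this scale in 9.09% and 8.72% of tiles as long as HOXB and HOXC. The difference in HOXD was also positive in kb without EV library 1 (1.13 kb) and without WT library 2 (0.288 kb). In covered kb, both EV libraries above all 4 others occurred in 4.55%, 3.57%, 4.67% and 4.6% of tiles with H3K27ac that were as long as HOXA, HOXB, HOXC and HOXD, and in none of the 4 clusters. Both EV libraries below all 4 others occurred in 2.39%, 2.18%, 2.47% and 2.6% of these tiles, and again in none of the clusters.

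WT and HEAA were compared to separate wild-type from mutant UTX. The mean of WT minus that of HEAA was -1.42 kb in HOXA, -0.946 kb in HOXB, 0.598 kb in HOXC and -1.44 kb in HOXD. The exact two-sided permutation p was 1, 1, 0.667 and 0.667, adjusted to 1, 1, 0.889 and 0.889, where 0.333 is the smallest that 2 against 2 libraries allow. In HOXA and HOXB the sign turned between library numbers, with -4.02 and -3.30 kb in number 1 and 1.17 and 1.41 kb in number 2. In HOXC it was 0.575 and 0.620 kb and in HOXD -1.60 and -1.27 kb in numbers 1 and 2, so the sign held within both numbers. Each of the 4 differences changed sign when 1 library was left out, over ranges of -7.61 to 4.76 kb in HOXA, -5.20 to 3.31 kb in HOXB, -0.884 to 2.08 kb in HOXC and -3.42 to 0.548 kb in HOXD. In HOXA, HOXB and HOXD the sign turned without HEAA library 1 or WT library 2, and in HOXC without WT library 1 or HEAA library 2. Leaving out 1 library leaves the numbers unbalanced between the lines. In covered kb, in no cluster did both libraries of 1 line lie above both of the other, which they did, in either direction, in 1.66%, 1.16%, 1.85% and 1.92% of tiles as long as HOXA, HOXB, HOXC and HOXD. Per Mb of the list, both WT libraries of HOXC lay above both HEAA libraries (exact permutation p = 0.333, the smallest possible), and on that scale the lines parted in either direction in 11.6% of tiles.

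Acetylated regions were largely shared between lines in HOXA, and less so in the other clusters, least in HOXB. Merging the 6 libraries gave 36 acetylated regions in the windows, of which 20 were called in all 6 (55.6%, against 31.8% of the merged regions of the genome). Of the 10 in HOXA 9 were called in all 6, of the 13 in HOXB 4, of the 6 in HOXC 3, and of the 7 in HOXD 4. Regions called in 1 library numbered 5 (13.9%, against 28.8%), at 27250299 to 27250625 in HOXA, 46634689 to 46634873, 46703270 to 46704388 and 46749199 to 46749426 in HOXB, and 177053087 to 177053567 in HOXD. The only region called in both EV libraries and no other lay in HOXC at 54371753 to 54372250, and such regions made up 0.91% of the merged regions of the genome. None was called in all 4 UTX-construct libraries and no EV library, a pattern of 0.541% of merged regions. The positions of these regions were looked up after the counts were known.

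H3K27me3 was compared between lines to see how the Polycomb mark on the clusters stood with and without a UTX construct. Over all 4 windows it covered 133 kb in EV, 86.1 kb in WT and 123 kb in HEAA, or 0.647 and 0.925 times EV. The whole lists stood at 0.704 and 1.05 times EV, so the HOX windows stood a little below the list in both lines. With a minimum −log10 q of 2 the WT value was 54.4 kb in place of 86.1 kb, and WT then had 0.483 times the bases of EV. The whole lists then covered 148 Mb in EV and 73.7 Mb in WT, so the windows again stood close to the list.

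The clusters differed among themselves. HOXA had the lowest ratio to EV, 0.0634 in WT and 0.505 in HEAA, on a base of 5.00 kb. Of the 9299 tiles of that length with at least 5 kb in EV, 2.65% and 12.2% had a ratio as low. HOXA lay at this cut-off, so nearly all of those tiles held as much H3K27me3 in EV or more. Tiles below the cut-off were not ranked. With windows widened by 20 kb the HOXA ratios were 0.339 and 0.603, still the lowest of the 4 clusters. HOXB stood at 0.599 in WT and 1.09 in HEAA, and HOXC at 0.635 and 0.808, beside medians over tiles of 0.618 and 0.990 for HOXB and 0.629 and 0.985 for HOXC. HOXD had the highest ratios, 0.896 in WT and 1.11 in HEAA, and 79.3% and 62.8% of tiles had a ratio as low. For HOXD in WT the ratio turned above 1 with a minimum −log10 q of 2 (1.02) and with lists of equal length (1.28), and for HOXB in HEAA it turned to 0.965 with that minimum. HOXB in WT fell from 22.1 to 8.35 kb with the same minimum, and its ratio to 0.263. H3K27me3 of HOXA and HOXC was below EV in both other lines, as it was in 51.3% and 51.6% of tiles of their lengths.

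Of 66 EV regions of H3K27me3 in the windows, 36 (54.5%) overlapped a WT region and 43 (65.2%) a HEAA region, against 51.1% and 63.7% of all EV regions. Both lines met 34 (51.5%, against 44.2%), and neither met 21 (31.8%, against 29.4%). Counted in bases, 57.9% of the H3K27me3 of EV was also called in WT and 74.4% in HEAA, against 45.2% and 59.5% over the whole list. Bases called in all 3 lines made up 42.3% of those called in any, against 23.5% over the whole lists. The share was 48.6% in HOXD, 48.1% in HOXC, 33.7% in HOXB and 4.06% in HOXA. With at least 50% of a region covered, 28 (42.4%) and 32 (48.5%) of the 66 were met, against 33.6% and 49.3% of all EV regions.

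H3K4me1 in the clusters went against the whole lists. It covered 88.0 kb of the 4 windows in EV, 67.0 kb in WT and 68.7 kb in HEAA, or 0.761 and 0.781 times EV, while the whole lists covered 1.14 and 1.18 times as many bases as that of EV. All 4 clusters had fewer bases than EV in both other lines. The same held for 22.8%, 20.1%, 23.1% and 24% of tiles as long as HOXA, HOXB, HOXC and HOXD. Each line had 1 list, so these differences have no replicate check, and the same EV list stands in both ratios.

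HOXB had the lowest ratios, 0.536 in WT and 0.672 in HEAA, beside medians of 1.11 and 1.15 over tiles, and 0.853% and 2.14% of tiles had a ratio as low. HOXA stood at 0.725 and 0.831, with 5.99% and 8.51% of tiles as low. HOXC stood at 0.899 and 0.760 (21.6% and 5.06% of tiles) and HOXD at 0.967 and 0.809 (32.5% and 7.67%). The ratios of all clusters stayed below 1 at a minimum −log10 q of 2, with lists of equal length, with wider windows and with whole regions, and the closest to 1 was HOXD in HEAA at 0.997. With lists of equal length the 4 windows stood at 0.593 and 0.616 times EV. The order of the clusters changed in that setting, as HOXC in HEAA (0.460) was below HOXB (0.497), and HOXD in WT moved to 0.630. HOXB in WT was 0.371 there and 0.355 with the q minimum.

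**Figure D3:**
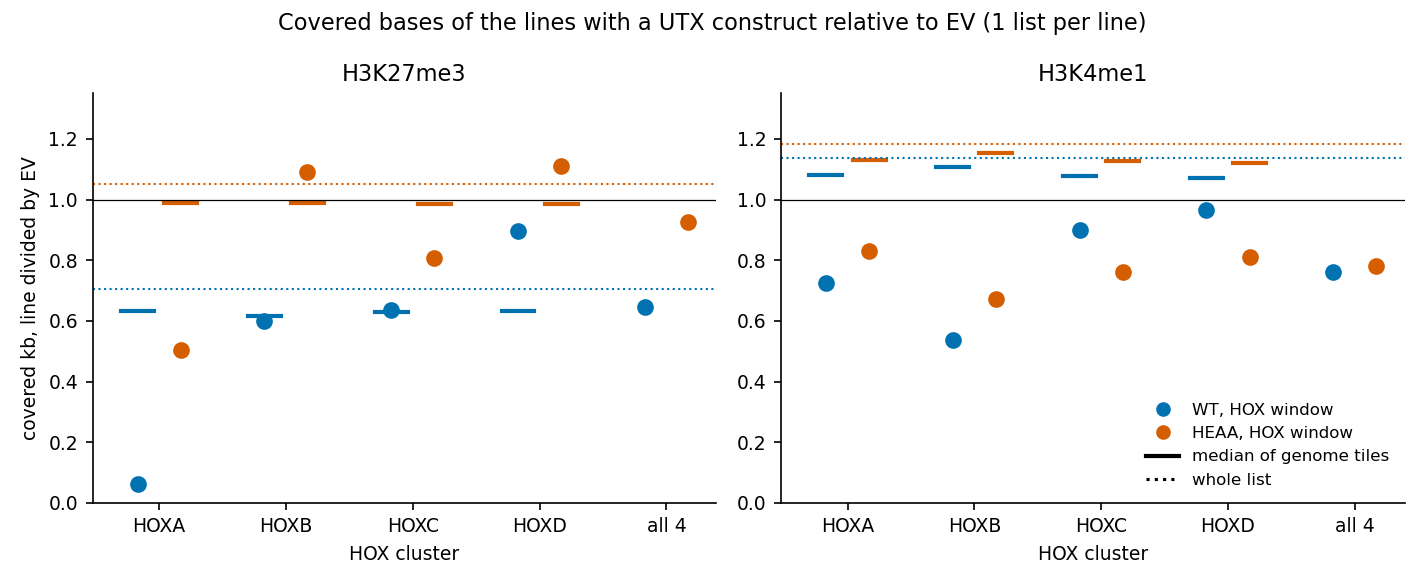
Covered kb in WT and HEAA divided by that in EV (y axis, linear ratio) for each HOX window and all 4 together, for H3K27me3 (left) and H3K4me1 (right), with 1 list per line. Points are HOX windows, thick bars the median ratio of genome tiles of the same length, dotted lines the ratio of the whole lists and the thin black line a ratio of 1. All H3K4me1 points lie below 1 and below the tile medians, while H3K27me3 points of HOXB and HOXC in WT lie beside them.

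Of 109 EV regions of H3K4me1 in the windows, 78 (71.6%) overlapped a WT region and 74 (67.9%) a HEAA region, against 81.1% and 83.8% of all EV regions. Both lines met 67 (61.5%, against 75.9%), and neither met 24 (22.0%, against 11.1%). With at least 50% of a region covered, WT met 56 (51.4%, against 71.7%) and HEAA 64 (58.7%, against 75.1%). Counted in bases, 59.9% of the H3K4me1 of EV in the windows was also called in WT and 65.0% in HEAA, against 76.7% and 79.7% over the whole list. In HOXB these shares were 37.8% and 47.0%, the lowest of the 4 clusters, and in HOXA 67.0% and 76.8%.

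Bases inside and outside acetylated chromatin were then separated, with the union of the 6 H3K27ac lists as the acetylated part. Inside it, H3K4me1 in the windows was 43.4 kb in EV, 35.8 kb in WT and 36.1 kb in HEAA, or 0.825 and 0.831 times EV, against 1.01 and 1.03 over the whole lists. Outside it, there were 44.7, 31.2 and 32.7 kb, or 0.699 and 0.731 times EV, against 1.31 and 1.396. The lowest values outside it were those of HOXA and HOXB in WT, 0.519 and 0.466 times EV. The exception was HOXD in WT, where H3K4me1 inside acetylated bases was 1.22 times that of EV.

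The widest H3K4me1 regions of HOXD overlapped between the lines. The widest was 1.87, 2.08 and 1.56 kb and lay over the acetylated segment at 176969230 to 176971820, of which H3K4me1 covered 72.02%, 80.2% and 64.2%. In HOXC the widest EV and WT regions overlapped, at 54346155 to 54348669 and 54346197 to 54348164, and the HEAA region at 54347261 to 54348449 overlapped both. In HOXB the widest was at 46606101 to 46607792 in EV, 46605905 to 46607503 in WT and 46755432 to 46757138 in HEAA.

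The 3 marks shared bases in the clusters differently from the rest of the genome. Of the acetylated bases in the windows, 44.6% and 42.5% in EV, 36.2% and 29.6% in WT, and 38.1% and 30.2% in HEAA were also under H3K4me1. Over the whole lists the shares were 71.97% and 68.1%, 71.5% and 63.4%, and 72.2% and 63.2%. Of the 19.9 kb stretch in HOXA, H3K4me1 covered 23.1%, 18.6% and 13.01% in EV, WT and HEAA, and of the HOXB segment at 46687487 to 46688616 it covered 0% in each line. The HOXA segment at 27175102 to 27176528 was covered by H3K4me1 over 100% in each line. H3K27me3 covered none of the 10 acetylated segments in any line.

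A larger share of the H3K27me3 bases lay under H3K4me1 in the windows than over the whole lists. Of the H3K27me3 bases in the windows, 10.1% in EV, 7.53% in WT and 7.97% in HEAA were also under H3K4me1, against 1.55%, 1.82% and 1.73% over the whole lists. In HOXA the share was 48.5% in EV, 0% in WT and 26.2% in HEAA, on few bases. In the other clusters it lay between 3.14% (HOXB, HEAA) and 12.9% (HOXD, EV). H3K4me1 covered 14.6%, 11.1% and 11.4% of all bases of the windows in EV, WT and HEAA, above its share of their H3K27me3 bases. H3K27ac and H3K27me3 are marks of the same residue, and they shared 0 to 0.946 kb of the windows over the 6 libraries. That was 0.683% and 1.27% of the acetylated bases in EV, 0% and 0% in WT, and 1.03% and 0% in HEAA, against 0.0171% to 0.0708% over the whole lists. H3K27me3 covered 22.0%, 14.2% and 20.3% of the windows in EV, WT and HEAA. The comparisons with the whole lists were not corrected for how densely each mark covered the windows. These overlap values carry no test, since overlap was measured between called regions of single lists.

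**Figure D4:**
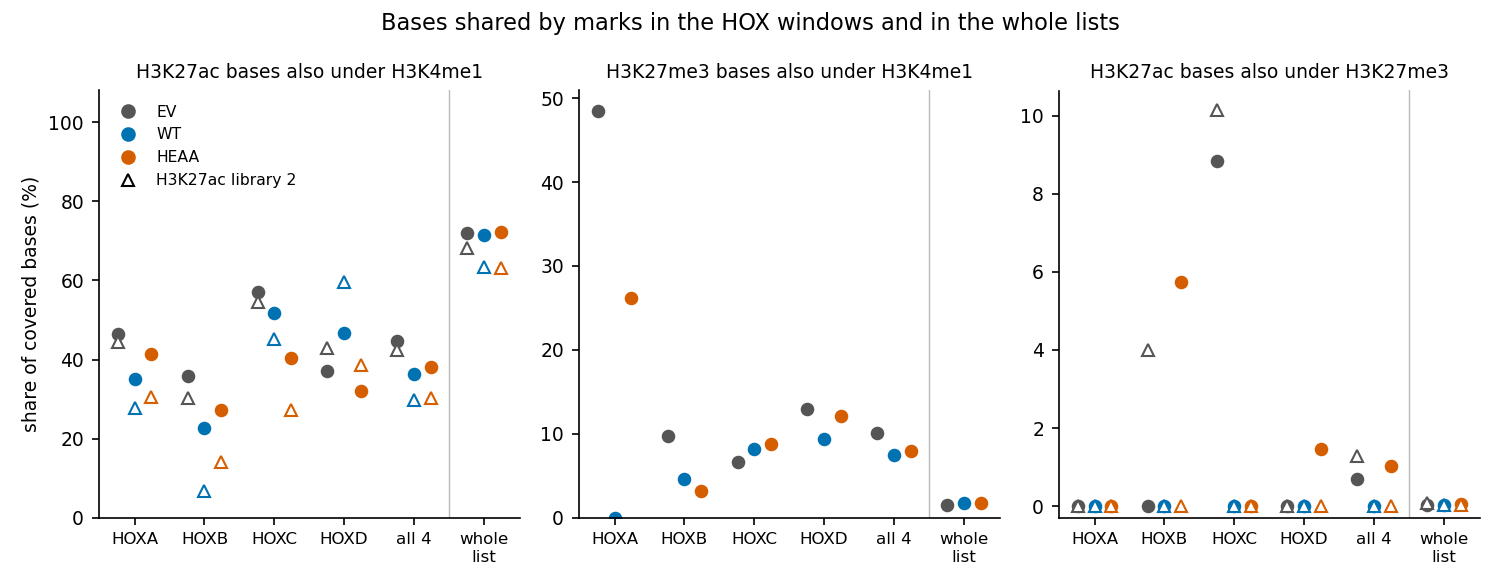
Share of the bases of 1 mark that also lie under another (y axis, percent) in each HOX window, in all 4 together and in the whole lists. Circles are single lists or H3K27ac library 1 and open triangles H3K27ac library 2, coloured by line. Shares are not corrected for how densely each mark covers the windows. In all 4 windows together, 29.6% to 44.6% of H3K27ac bases lie under H3K4me1, below the 63.2% to 72.2% of the whole lists, and 7.53% to 10.1% of H3K27me3 bases lie under H3K4me1, above the 1.55% to 1.82% of the whole lists.

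The last comparison asked whether UTX or MLL4 itself was called on the clusters. Over the 4 windows UTX had 1 peak, found in HEAA, and 0 in the other lines, and MLL4 had 0 in each line. With windows widened by 20 kb on each side the counts were the same. At the rate of 24.4 WT peaks per Mb of H3K27ac in library 1 and 35.0 in library 2, the acetylated bases of the windows would hold 1.84 and 2.02 UTX peaks of WT. For UTX in HEAA, its own rates of 23.7 and 42.4 peaks per Mb gave 1.98 and 2.36. For MLL4 in WT and HEAA, each at its own rates, the values were 0.651 to 0.890. The counts found were 1 UTX peak in HEAA, 0 UTX peaks in WT and 0 MLL4 peaks.

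The HEAA peak lay in HOXA at 27154822 to 27155038 on chromosome 7, spanned 217 bp and had a fold of 5.27 and a −log10 q of 8.51. It ranked 1431 of 2855 in its list by fold, at the median. It fell within the acetylated segment at 27150767 to 27155676, which was called in all 6 H3K27ac libraries. No H3K4me1 region of any line covered it, but such a region began 156, 151 and 154 bp beyond it in EV, WT and HEAA. The nearest H3K27me3 region was 82.4, 90.5 and 87.7 kb away.

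In WT the nearest UTX peak to the HOXA window lay 131 kb below it, at 26988400 to 26988594, and MLL4 peaks of WT (26988399 to 26988599) and HEAA (26988323 to 26988533) lay at the same place. For the other clusters the nearest UTX peak of WT or HEAA was 638 to 985 kb from the window. The MLL4 peaks closest to HOXB, HOXC and HOXD over the 3 lines were 638, 985 and 973 kb away. Absence from a list means only that no peak passed the threshold of the caller there.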

How the data were processed

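Peak lists of 18 ChIP-seq samples were used, and the 6 input samples were not. Per the submitters' processing notes MACS2 was used with hg19 (GRCh37), and the version of it and the aligner were not given in the sources used here. Lists of UTX and MLL4 hold narrow peaks and those of histone marks broad regions, 1 list per sample, and the peak names of the UTX lists carry the word merged without saying what was merged. The deposited fold enrichment (a linear ratio), the −log10 p and −log10 q values and a score are the authors'. Fold and q values served only to describe, rank or filter regions within a list, and the score and p values were not used. The depth of each sample is unknown, so no counting interval is given.

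Regions were clipped to the windows and merged, and covered bases were counted in Python 3.11.15 with NumPy 2.4.6, pandas 2.3.3 and SciPy 1.17.1. Figures were drawn with matplotlib 3.10.9. The interval and permutation code gave no wrong answer in 600 interval checks and 50 permutation tests on simulated data. Genome tiles had the length of a window, and ratios between lines used tiles with at least 5 kb in EV. H3K27ac was compared over libraries with exact permutation tests, and the other marks, with 1 list per line, without a test. Gene order and promoters came from RefSeq tables of GRCh38.p14, and no coordinates were carried between builds. Positions were named from a rule that lists all UTX and MLL4 peaks in a window, the widest region and that of highest fold per mark, cluster and line, and acetylated segments of at least 1 kb in all 6 libraries. Some of those are summarised or not reported here, and the edges between marks, regions of single patterns and peaks outside the windows were picked after their values were seen. The clusters, windows, lists and tests were chosen with earlier results of these data known. Alternatives covered the q minimum, list length, window width, region clipping, the overlap rule, the tiles and the libraries.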

Additional observations from a re-analysis of the deposited data

How the results depend on the processing

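All comparisons rest on called regions, so a weak mark can be missed, and the unknown depth limits every ratio between lines. H3K27me3 and H3K4me1 had 1 list per line. The H3K27ac tests cannot reach 0.05, so their settings say only whether a direction held, and no p fell below 0.05 in any of them.

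For EV against WT and HEAA, leaving out 1 library gave -6.09 to -1.97 kb in HOXA, -5.94 to -3.11 kb in HOXB, -2.15 to -0.339 kb in HOXC and -2.24 to 1.13 kb in HOXD. Per Mb of list the difference reversed in HOXA (21.2 bases) and HOXD (1.01 bases), and with lists of equal length it reversed in HOXD (0.420 kb). For WT against HEAA the ranges were -7.61 to 4.76 kb, -5.20 to 3.31 kb, -0.884 to 2.08 kb and -3.42 to 0.548 kb in HOXA to HOXD, and with lists of equal length HOXB reversed (0.446 kb). The cause of these reversals was not tested.

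The H3K27ac libraries share the numbers 1 and 2 across lines, but the labels do not say that a number marks a shared batch. Over 10465 tiles of 140 kb, the deviations of same-numbered libraries from the line means correlated at 0.713, 0.650 and 0.889 between lines. In each line the list of number 1 was longer than that of number 2. They covered 88.1 and 71.7 Mb in EV, 96.0 and 55.3 Mb in WT, and 111 and 48.3 Mb in HEAA. Whether list length or a shared batch lay behind the correlations was not tested. With the replicate number as a block the differences from EV were -3.80, -4.37, -1.25 and -0.558 kb in HOXA to HOXD, with exact permutation p = 0.333, 0.222, 0.111 and 0.444. For WT minus HEAA the block gave -1.42, -0.946, 0.598 and -1.44 kb, with exact permutation p = 1, 1, 0.5 and 0.5. No call changed.

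With a minimum −log10 q of 2, H3K27me3 of WT over the 4 windows moved to 54.4 kb; the q minimum drops more of the WT list (to 73.7 Mb) than of EV (to 148 Mb). On the log2 scale the H3K27me3 ratio of WT to EV in HOXD reversed with that minimum (0.035) and with lists of equal length (0.36), and that of HEAA to EV in HOXB reversed with the minimum (-0.051). Among the values of single clusters and the tile ranks, 17 others moved, and the ratios among them are given beside the comparisons of H3K27me3 and H3K4me1. The other 208 did not move.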

Other observations

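The 100 kb on either side of each window were read as well, and no test was made there. Beside HOXC, H3K27me3 went on at a level like that inside the window. In EV it covered 54.2 kb of the flank next to HOXC4 and 62.3 kb of that next to HOXC13, with 34.1 and 23.2 kb in WT and 44.9 and 40.3 kb in HEAA. Acetylation beside HOXC was called over 0 kb next to HOXC4 in all 6 libraries, and over at most 3.75 kb next to HOXC13. The flank next to HOXA13 had 12.3, 7.29 and 8.69 kb of H3K27me3 in EV, WT and HEAA. H3K27ac covered 30.7% to 39.5% of the HOXA window and 1.45 to 5.19 kb of the 100 kb next to HOXA13. Next to HOXB1, H3K4me1 covered 21.3, 17.0 and 19.2 kb of 100 kb in EV, WT and HEAA, against 17.8, 9.57 and 12.0 kb of the whole HOXB window. The ratio to EV in that flank was not tested.

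In WT a short H3K27me3 region of 0.238 kb, at 176963459 to 176963696 in HOXD, lay on the HOXD1 side of the acetylated region that borders the broad H3K27me3 beside HOXD13. It was picked out after its position was seen.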
